A study of Homo sapiens with 5 samples.

Results

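The 10 genes described here encode the proteins that make a mature microRNA (miRNA) and hold it. They are DROSHA, DGCR8, XPO5, DICER1, TARBP2, PRKRA and the Argonautes AGO1, AGO2, AGO3 and AGO4. The rule that picks them uses the gene name and no measured value, but they were chosen with earlier results of these data known. All 10 were found among the 33857 genes listed in the deposited table, and all 10 were among the 19232 genes with enough reads to be tested. A miRNA is cut in the nucleus from a long primary transcript by DROSHA with its RNA-binding partner DGCR8, a pair known as the Microprocessor. The hairpin so released is carried to the cytoplasm by XPO5 (exportin 5) and cut again by DICER1, whose double-stranded RNA-binding partners are TARBP2 and PRKRA. One strand is then loaded into an Argonaute protein, which represses messenger RNAs that pair with the seed of the miRNA. Embryonic stem cells depend on this pathway to leave self-renewal, and the miR-302 cluster is its best known product in human embryonic stem cells.

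The cells were H9, an established human embryonic stem cell line grown in mTeSR medium, and their poly(A)+ RNA was sequenced. The 2 mock controls were clones that had received the empty CRISPR vector (labelled control KO), and the 3 CFIm25-m samples were gene-edited clones (labelled CFIm25 KO) made with independent guide RNAs against NUDT21, the gene of the mRNA 3' processing factor CFIm25. Clones are numbered by the replicate numbers of the labels. The study describes the mutants as a knockdown with small N-terminal deletions rather than a full loss, so each mutant sample is 1 clone that keeps some CFIm25. CFIm25 is known for its part in the choice of polyadenylation site. The comparison asks whether the mRNA levels of the miRNA machinery differed between the clones and the mock controls. Each sample is thus 1 clone of 1 line. The p-values measure the spread between these clones, which limma, the main test, moderates toward that of genes of like level.

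Values are normalized read counts per gene, that is reads divided by 1 size factor per sample, and each sample held between 18754108 and 23372391 reads. NUDT21, on the minus strand of chromosome 16, had 6503 and 6398 normalized counts in mock control against 4035, 3281 and 3400 in the clones. The edited gene was lower in all 3 clones (log2 fold change -0.86, adjusted p = 0.00431, limma), with its mRNA still present. The 9 stem cell markers were between 852 and 57449 in every sample. By limma or edgeR 0 of them were called as changed, while DESeq2 called SALL4 lower. All clones lay below both controls for NANOG, LIN28A, DNMT3B and SALL4, and above them for POU5F1 and TDGF1. For SOX2, L1TD1 and DPPA4 the groups overlapped. Groups that did not overlap were seen in 36.8% of all tested genes. The 10 markers of ectoderm, mesoderm and endoderm summed to between 142 and 153 in the mock controls and between 118 and 130 in the clones. TBX6 reached 77.2, no other germ layer marker exceeded 29.8, SOX17 and FOXA2 were at 0 in some samples, and 0 of the 4 that passed the filter were called.

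Mature miRNAs are too short for poly(A)+ libraries and were not measured, so at most their long precursors can appear among the counts. At the miR-302 cluster, reads of the opposite-strand gene LARP7 cannot be told apart from reads of such a precursor. The sequences of the products that the machinery makes from 2 well-studied precursors are shown because the counts at the genes of those precursors are given below. They come from RefSeq (GRCh38.p14), run 5' to 3', and have the seed (bases 2 to 8) in capitals. All 11 that were looked for had an entry. The first 5 are encoded by the miR-302 cluster on the minus strand of chromosome 4, and the other 6 by MIR17HG on the plus strand of chromosome 13.
hsa-miR-302a-3p: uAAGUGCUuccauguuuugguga
hsa-miR-302b-3p: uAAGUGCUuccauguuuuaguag
hsa-miR-302c-3p: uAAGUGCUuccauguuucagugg
hsa-miR-302d-3p: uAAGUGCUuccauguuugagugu
hsa-miR-367-3p: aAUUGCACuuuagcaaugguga
hsa-miR-17-5p: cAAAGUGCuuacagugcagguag
hsa-miR-20a-5p: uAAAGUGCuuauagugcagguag
hsa-miR-18a-5p: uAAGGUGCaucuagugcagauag
hsa-miR-19a-3p: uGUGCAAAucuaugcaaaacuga
hsa-miR-19b-3p: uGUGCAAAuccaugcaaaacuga
hsa-miR-92a-3p: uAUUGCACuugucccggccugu
The 11 sequences fall into 5 seeds. The 4 miR-302 sequences share AAGUGCU, miR-17-5p and miR-20a-5p share AAAGUGC, both miR-19 sequences share GUGCAAA, and miR-18a-5p alone has AAGGUGC. The seed AUUGCAC is shared across the clusters, by miR-367-3p of chromosome 4 and miR-92a-3p of chromosome 13.

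None of the 10 genes was called as changed in CFIm25-m. With limma on log2(normalized count + 1) and Benjamini-Hochberg adjustment over all 19232 tested genes, 0 of 10 were lower and 0 of 10 were higher at an adjusted p below 0.05. Among all tested genes 1.88% were called, 0.936% as lower and 0.941% as higher. At an unadjusted p below 0.05 the number of called members was also 0, by limma, by edgeR and by DESeq2. Among the 19232 tested genes these tools had 2911 (15.1%), 2874 and 2295. The smallest adjusted p of a member was 0.387, for AGO3. The estimated log2 fold changes were between -0.17 and 0.21, 5 below 0 and 5 above, with a median of -0.02 beside -0.01 for all tested genes.

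The intervals set how large a difference these samples leave room for. Over the 10 genes the 95% intervals of the log2 fold change ran from -0.42, for AGO2, to 0.49, for DGCR8, which are ratios of CFIm25-m to mock control of 0.746 and 1.41. A missed threshold does not show that the groups were equal within these bounds. The median size of the change was 0.118 on the log2 scale, beside 0.175 for all tested genes and 0.116 for the 5145 tested genes whose mean count lay between those of the lowest and the highest member. In that range of counts 2.18% of genes were called. Every member had at least 609 reads in every sample, so that the standard deviation from counting alone was at most 4.05% of a value.

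**Figure D1:**
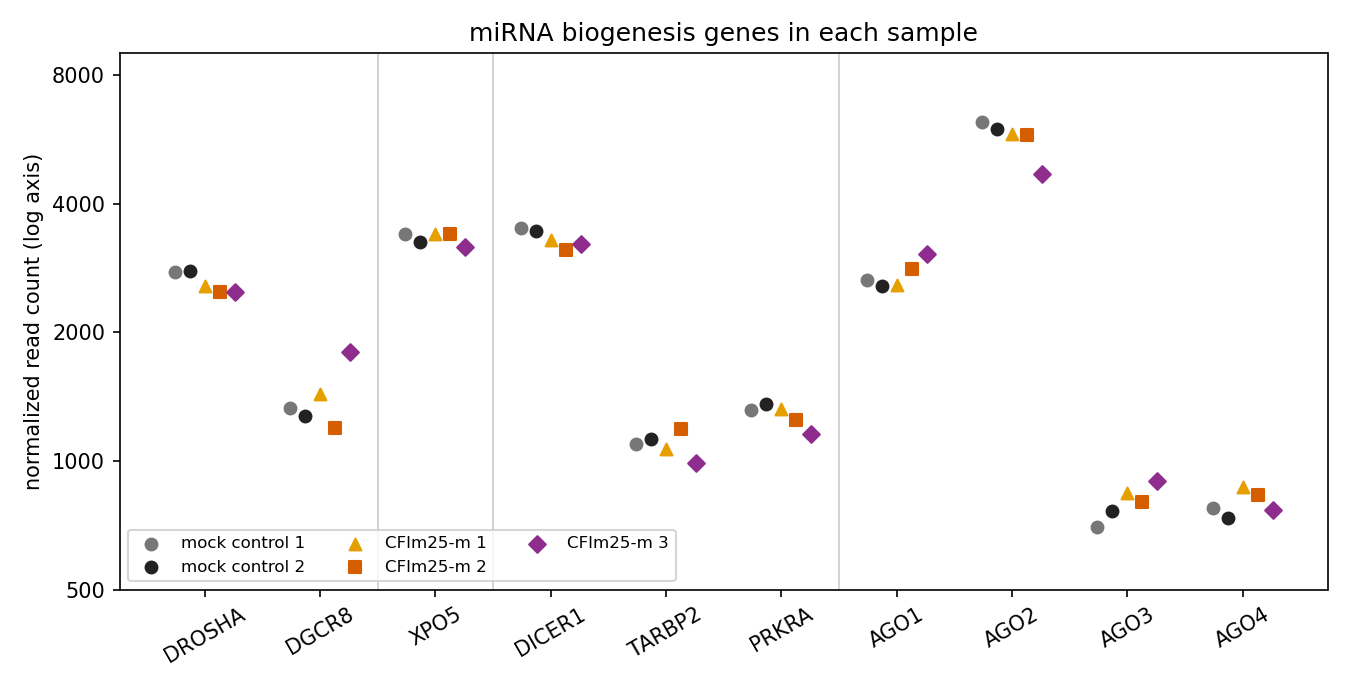
Normalized read count (log axis) of each of the 10 miRNA biogenesis genes in the 2 mock controls (grey and black circles) and the 3 CFIm25-m clones (coloured symbols), ordered by role: Microprocessor, export, DICER1 with its partners, Argonautes. AGO2 is the highest in every sample and AGO3 and AGO4 the lowest, and the clone 3 symbol of DGCR8 (1795) stands above the other 4 samples while that of AGO2 (4700) stands below them.

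Of the Microprocessor, DROSHA is the nuclease that cuts the primary transcript. It lies on the minus strand of chromosome 5 (ENSG00000113360, 31400497 to 31532196, hg38). Its normalized counts were 2764 and 2786 in mock control against 2562, 2490 and 2486 in CFIm25-m clones 1, 2 and 3. All 3 clones lay below both controls, with a difference in means of -9.45%. The log2 fold change was -0.14 (SE 0.085, 95% interval -0.33 to 0.05, adjusted p = 0.461, limma). The clones were also close to each other, with a range of 0.04 on the log2 scale. Only 2.42% of 3099 genes of like count had a smaller range among the clones.

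DGCR8, which recognises the hairpin for DROSHA, lies on the plus strand of chromosome 22 (ENSG00000128191, 20080232 to 20111877). It had 1332 and 1276 normalized counts in mock control against 1431, 1193 and 1795 in the clones. Clone 3 was the highest and clone 2 the lowest of the 5 samples, so the groups overlapped. The log2 fold change was 0.16 (SE 0.15, 95% interval -0.18 to 0.49, adjusted p = 0.658, limma), and it was 0.003 without clone 3. The range among the clones, 0.59 on the log2 scale, was larger than in 95.01% of 4713 genes of like count, so the pair of partners held nearly opposite places in spread. Per kilobase of gene length, the level of DROSHA was 1.95 and 2.05 times that of DGCR8 in the mock controls and 1.68, 1.96 and 1.30 times in the clones, and these ratios overlapped between the groups.

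XPO5, the export receptor of the hairpin, lies on the minus strand of chromosome 6 (ENSG00000124571, 43522330 to 43576075). Its normalized counts were 3387 and 3252 in mock control against 3403, 3393 and 3174 in the clones. The means of the groups differed by 0.105%, the least of the 10 genes, and the log2 fold change was 0.00 (SE 0.088, 95% interval -0.20 to 0.20, adjusted p = 0.996, limma).

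DICER1, the cytoplasmic nuclease, lies on the minus strand of chromosome 14 (ENSG00000100697, 95086228 to 95158010). It had 3506 and 3449 normalized counts in mock control against 3285, 3110 and 3219 in the clones. Every clone lay below both controls with a difference in means of -7.85%. The log2 fold change was -0.12 (SE 0.086, 95% interval -0.31 to 0.07, adjusted p = 0.548, limma). The estimate was below 0 in 14 of 14 alternative analyses, between -0.14 and -0.10, and passed the threshold in none of them. Because every clone lay below both controls, leaving out a sample could not turn the sign of the estimate. The DICER1 count sums over all its polyadenylation sites, so a shift between short and long 3' ends with no change in total would not be seen in it. The study also sequenced mRNA 3' ends of control and mutant cells, and reports no apparent shift of this kind for DICER1.

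The partners of DICER1 had overlapping groups. TARBP2 (ENSG00000139546) is a plus-strand gene of chromosome 12 (53500921 to 53506431) and had 1094 and 1127 normalized counts in mock control against 1067, 1191 and 992 in the clones. Clone 2 was its highest sample and clone 3 its lowest, and the log2 fold change was -0.04 (95% interval -0.28 to 0.20, adjusted p = 0.893, limma). PRKRA (ENSG00000180228), a minus-strand gene of chromosome 2 (178431414 to 178451512), had 1316 and 1358 in mock control against 1326, 1251 and 1154 in the clones. Clones 2 and 3 of PRKRA lay below both controls and clone 1 between them, and the log2 fold change was -0.11 (95% interval -0.33 to 0.11, adjusted p = 0.642, limma), with -0.054 without clone 3. Per kilobase, PRKRA was 1.25 times TARBP2 in both mock controls and 1.29, 1.09 and 1.21 times TARBP2 in the clones. DICER1 relative to DROSHA, the nucleases of the successive cuts, was 0.803 and 0.783 in mock control against 0.812, 0.790 and 0.819 in the clones. Neither nuclease was called, with log2 fold changes of -0.14 for DROSHA and -0.12 for DICER1, and the ratios overlapped between the groups.

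The Argonautes bind the mature miRNA, and AGO2 is the member known for cutting fully paired targets. AGO2 (ENSG00000123908, chromosome 8, minus strand) had 6193 and 5989 normalized counts in mock control against 5803, 5788 and 4700 in the clones. The 3 clones lay below both controls, clones 1 and 2 only slightly and clone 3 by 0.37 on the log2 scale, the lowest deviation of a single clone among the 10 genes. The log2 fold change was -0.17 (SE 0.112, 95% interval -0.42 to 0.08, adjusted p = 0.504, limma). Without clone 3 it was -0.07, less than the estimate from all samples.

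AGO4, AGO1 and AGO3 lie side by side in this order on the plus strand of chromosome 1, at 35808172 to 35857890 (ENSG00000134698), 35869808 to 35930528 (ENSG00000092847) and 35930718 to 36072500 (ENSG00000126070). The gap between AGO4 and AGO1 is 11917 bases and that between AGO1 and AGO3 only 189. AGO3 had 702 and 765 normalized counts in mock control against 842, 802 and 899 in the clones. All 3 clones of AGO3 lay above both controls, by 15.6% on the means, and the log2 fold change was 0.21 (SE 0.105, 95% interval -0.03 to 0.44, unadjusted p = 0.0751, adjusted p = 0.387, limma). AGO4 had 778 and 737 in mock control against 870, 833 and 768 in the clones. Its clone 3 lay between the controls, and the log2 fold change was 0.12 (95% interval -0.11 to 0.35, adjusted p = 0.622, limma). AGO1 had 2648 and 2565 in mock control against 2581, 2812 and 3054 in the clones. Its clone 1 lay between the controls, and the log2 fold change was 0.11 (95% interval -0.11 to 0.33, adjusted p = 0.636, limma), with 0.048 without clone 3 and 0.17 without clone 1. The estimates of the 3 neighbours were thus all above 0 and that of AGO2 below 0, with none past the threshold.

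**Figure D2:**
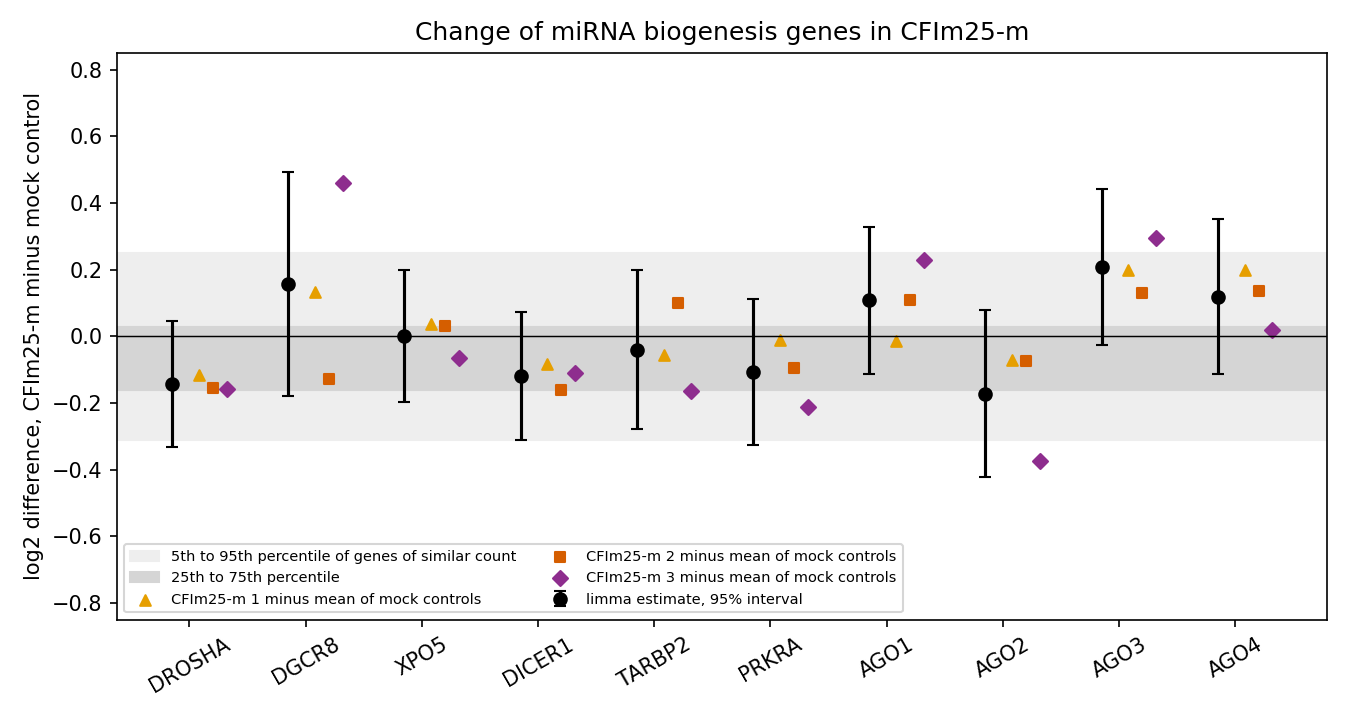
Log2 difference of CFIm25-m minus mock control for each of the 10 genes: the limma estimate with its 95% interval (black) and each clone minus the mean of the mock controls (coloured symbols), over bands that hold the middle 50% (dark grey) and 90% (light grey) of the 5145 tested genes in the members' range of counts. All 10 intervals include 0, and the single clones run from -0.37 (AGO2, clone 3) to 0.46 (DGCR8, clone 3).

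The groups did not overlap in 4 of the 10 genes (40%), DROSHA, DICER1 and AGO2 with lower clones and AGO3 with higher ones. This share was close to the background, since the groups did not overlap in 36.8% of all tested genes, 19.8% with lower and 17.0% with higher clones. Measured against the mean of the controls, 4 genes were lower in all 3 clones, 2 were higher in all 3, and 4 had clones on both sides. Clone 3 deviated most in 8 of the 10 genes. The median deviation of the 10 genes was -0.01, -0.02 and -0.09 on the log2 scale in clones 1, 2 and 3, beside -0.01, -0.01 and -0.07 for all tested protein-coding genes.

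The levels of the 10 genes can be compared with each other only per length, as normalized counts per kilobase of the gene length listed in the table, whose derivation is not given in the sources used here. In the mock controls the order of the mean levels per kilobase was XPO5 (390), AGO2 (385), DROSHA (357), PRKRA (339), DICER1 (283), TARBP2 (272), AGO1 (188), DGCR8 (178), AGO4 (104) and AGO3 (34.7). XPO5 was thus 11.2 times AGO3 in level per kilobase. All but AGO3 were above the median tested gene, at 66.7 per kilobase, and the members stood between the 38.6th and the 87.3rd percentile. In CFIm25-m the mean levels per kilobase were 390 for XPO5, 343 for AGO2, 323 for DROSHA, 316 for PRKRA, 261 for DICER1, 265 for TARBP2, 203 for AGO1, 201 for DGCR8, 113 for AGO4 and 40.1 for AGO3. Over the 5 samples the ranges of neighbours in this order were apart only between PRKRA and DICER1, TARBP2 and AGO1, DGCR8 and AGO4, and AGO4 and AGO3. The ranges of the other neighbours overlapped, which were XPO5 and AGO2, AGO2 and DROSHA, DROSHA and PRKRA, DICER1 and TARBP2, and AGO1 and DGCR8. XPO5 was nevertheless above AGO2 in all 5 samples, and its range of 372 to 399 per kilobase lay wholly above those of DROSHA (320 to 358) and PRKRA (293 to 345).

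Of the summed Argonaute level per kilobase, AGO2 made up 54.2% and 54.0% in mock control and 51.5%, 50.7% and 44.6% in the clones. AGO1 made up 26.4% in both mock controls and 26.1%, 28.1% and 33.1% in the clones. In clone 3 the AGO2 share was the lowest and the AGO1 share the highest of the 5 samples. AGO4 made up 14.8% and 14.5% in mock control and 16.8%, 15.9% and 15.9% in the clones, and AGO3 4.59% and 5.16% against 5.59%, 5.26% and 6.39%. The groups did not overlap for AGO2 (lower in the clones), AGO3 and AGO4 (higher), and overlapped for AGO1. The sum itself was 722 and 701 in mock control against 712, 721 and 665 in the clones. Shares of 1 sum move against each other by construction. They are given as a description and were not tested.

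**Figure D3:**
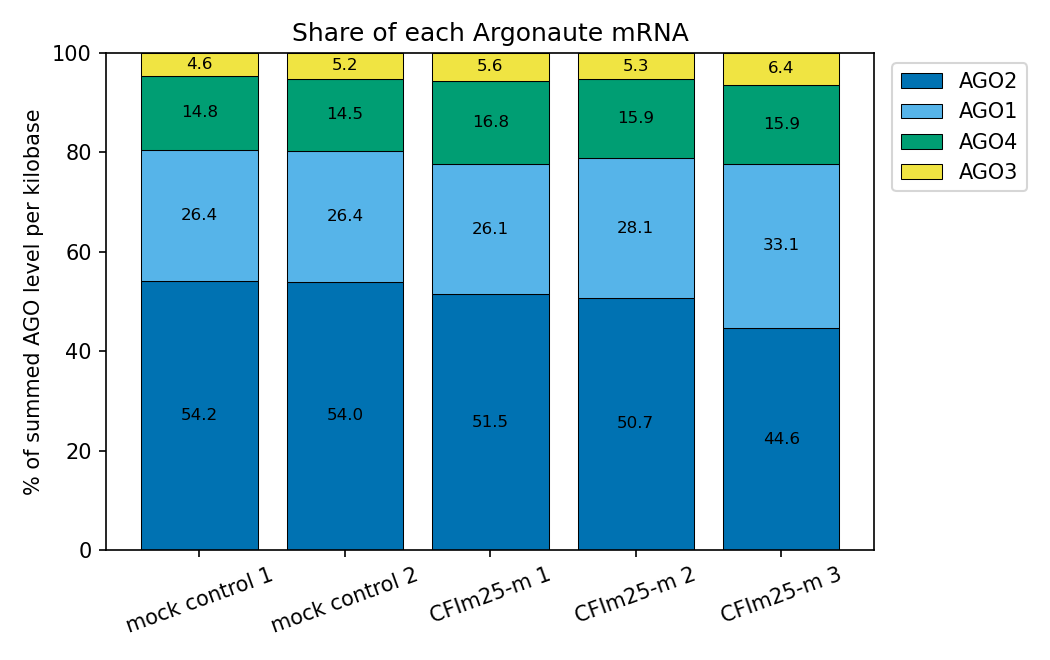
Share (%) of each Argonaute gene in the summed AGO1 to AGO4 normalized count per kilobase, 1 stacked bar per sample from 0 to 100%. The AGO2 share is 54.2% and 54.0% in mock control and 51.5%, 50.7% and 44.6% in CFIm25-m clones 1 to 3.

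Other listed genes share bases with the members, and the strand setting of the counting is not given in the sources used here, so reads of an antisense partner cannot be told apart from those of the member. There were 14 such genes, of which 6 had a mean normalized count of at least 10. DICER1-AS1 overlaps DICER1 by 366 bases on the opposite strand, at its start. It had 141 and 128 normalized counts in mock control against 156, 173 and 210 in the clones, a mean of 4.88% of the DICER1 count. All clones of DICER1-AS1 lay above both controls, and its log2 fold change was 0.41 (95% interval 0.01 to 0.81, adjusted p = 0.324, limma), which did not pass the threshold. The median deviation of all 1274 tested antisense genes was 0.15, 0.07 and 0.44 on the log2 scale in clones 1, 2 and 3, and its part in the DICER1-AS1 values was not tested.

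POLR1C, a subunit of RNA polymerases I and III, lies opposite to XPO5 over 40090 bases and its count was 13.5% of that of XPO5. Its log2 fold change was -0.07 (adjusted p = 0.804, limma). The antisense gene AC009948.1 shares 8830 bases with PRKRA, and its count was 20.55% of that of PRKRA. It had 259 and 246 normalized counts in mock control against 261, 226 and 324 in the clones, and the log2 fold change was 0.08 (adjusted p = 0.855, limma). The other 3 were PJVK at the start of PRKRA (167 shared bases, log2 fold change 0.55, adjusted p = 0.425), TRMT2A at the end of DGCR8 (12 shared bases, log2 fold change 0.01, adjusted p = 0.981) and the processed pseudogene AL355802.1 within XPO5 (log2 fold change -0.34, adjusted p = 0.755), all by limma. PJVK was high in clones 1 and 3, at 98.2 and 115, and at 55.8 to 58.9 in the other 3 samples. None of the 6 was called, beside 1.88% of all tested genes.

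Around the 10 genes, 57 further genes of the pathway were listed by role, with earlier results of these data known, and all 57 were tested. One of them, TRIM71, was called lower in CFIm25-m and none higher. That is 1.75% of the lists, beside 1.88% of all tested genes. At an unadjusted p below 0.05 there were 8 of 57, against 15.1% of all tested genes. At the adjusted threshold edgeR and DESeq2 each called 1 gene as well, beside 1.81% and 3.27% of all tested genes. The log2 fold change was below 0 in 44 and above 0 in 13, with a median of -0.11, beside -0.01 for all tested genes and -0.07 for tested genes in the count range of the 10 members. The groups did not overlap in 25 of the 57 (43.9%), 22 with lower and 3 with higher clones, beside 36.8%, 19.8% and 17.0% of all tested genes. By clone, the median deviation of the 57 genes was -0.06, -0.10 and -0.16 for clones 1, 2 and 3.

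The 10 nuclear cofactors of DROSHA and of primary transcripts had a median log2 fold change of 0.02, and 0 of 10 were called. Their most abundant gene, HNRNPA2B1, a reader of primary miRNA transcripts, had an estimate of -0.04 on the log2 scale (adjusted p = 0.899, limma). The 4 transport genes were all below 0, with a median of -0.10 and 0 of 4 called. Their most abundant gene, RAN, the GTPase that drives nuclear export, had -0.11 (adjusted p = 0.725, limma). The 11 genes of editing, tailing and decay had a median of -0.06, with 0 of 11 called. LIN28A, the RNA-binding protein that blocks let-7 maturation, was their most abundant, with 56271 and 56659 normalized counts in mock control against 48004, 47651 and 33717 in the clones. All clones of LIN28A lay below both controls, and its log2 fold change of -0.41 (95% interval -0.78 to -0.03, adjusted p = 0.292, limma) did not pass the threshold over all genes. Without clone 3 the estimate for LIN28A was smaller, at -0.24, and passed it (adjusted p = 0.0133).

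The 5 chaperone genes of Argonaute loading were all below 0, with a median log2 fold change of -0.28, and 0 of 5 were called. Each had a mean count above that of every biogenesis gene, and no background of like count is given for them. HSP90AB1, a cytosolic HSP90, was the most abundant at 83827 and 82735 normalized counts in mock control against 68380, 73702 and 63825 in the clones (log2 fold change -0.28, adjusted p = 0.376, limma). The 27 silencing effectors cover the GW182 proteins, deadenylases and decapping factors that act with Argonautes, and other genes such as PABPC1, XRN1, MOV10 and TRIM71. Their median was -0.11. Of the 27 genes, 24 were below 0 and 1, TRIM71, was called. Their most abundant gene, PABPC1, the cytoplasmic poly(A)-binding protein, had an estimate of -0.11 on the log2 scale (adjusted p = 0.683, limma). HNRNPA2B1, RAN, HSP90AB1 and PABPC1 have processed pseudogenes of near-identical sequence, so their counts may hold or lack shared reads.

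TRIM71, the stem cell protein LIN-41 that is itself a known target of let-7 and represses mRNAs, lies on the plus strand of chromosome 3 (ENSG00000206557, 32818018 to 32897826). It fell from 24994 and 25323 normalized counts in the mock controls to 18593, 17464 and 15350 in the clones. All 3 clones lay well below both controls, which differed little from each other. The log2 fold change was -0.56 (95% interval -0.82 to -0.30, adjusted p = 0.0429, limma), close to the threshold. The estimate was between -0.62 and -0.48 over the 14 alternative analyses, while the call was not as stable. The call was lost with a filter of at least 10 counts in all 5 samples (adjusted p = 0.0592) and without the mean-variance trend (0.175). It was also lost without mock control 1 (0.475), mock control 2 (0.502), CFIm25-m clone 1 (0.0883) or clone 2 (0.0930). DESeq2 and edgeR called it lower too, with adjusted p-values of 7.63e-05 and 0.0378.

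Without clone 3, 6 of the 57 genes were called. Calls were more frequent over the whole table in that setting, with 1044 of 18809 genes (5.55%). The 6 genes are named here after their values were seen. LIN28A, HSP90AB1, HSPA8, TNRC6A and TRIM71 were lower and MOV10 was higher. MOV10, an RNA helicase that binds Argonautes, had 1435 and 1544 normalized counts in mock control against 1861, 1873 and 1865 in the clones. The MOV10 clones nearly coincided above both controls, and its log2 fold change over all samples was 0.33 (95% interval 0.13 to 0.52, adjusted p = 0.113, limma), against an adjusted p of 0.0270 without clone 3. TNRC6A, the GW182 protein that links Argonautes to deadenylases, had 5723 and 5603 in mock control against 4739, 4181 and 5067 in the clones (log2 fold change -0.28, adjusted p = 0.231 over all samples and 0.0176 without clone 3).

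**Figure D4:**
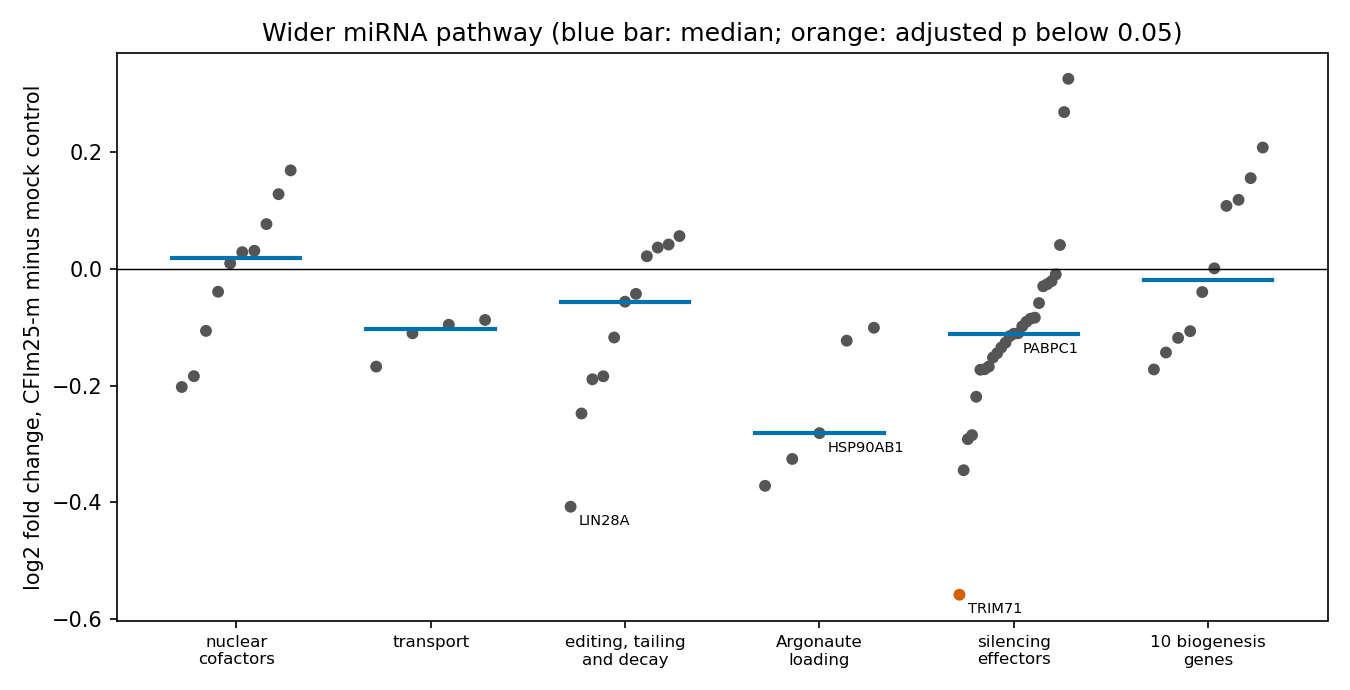
Log2 fold change of CFIm25-m minus mock control (vertical axis) of each tested gene of the 5 wider pathway lists and of the 10 biogenesis genes, sorted within each list, with the list's median as a blue bar. TRIM71 (orange) at -0.56 is the only gene past the adjusted threshold, and the 5 Argonaute loading genes all lie below 0 around a median of -0.28.

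On the side of the substrates, 43 miRNA host genes were listed by name and 23 were tested. None was called by limma, edgeR or DESeq2, beside 1.88%, 1.81% and 3.27% of all tested genes. By these tools 3, 2 and 1 of them had an unadjusted p below 0.05, beside 2911 (15.1%), 2874 and 2295 of 19232 tested genes. The 23 host genes had a median log2 fold change of 0.18, with single genes between -1.36 and 1.47. The median deviation was -0.01 in clone 1, -0.04 in clone 2 and 0.36 in clone 3, so the median over the groups followed clone 3. The most abundant were MIR4697HG, with 1284 and 1287 normalized counts in mock control against 1161, 1146 and 1400 in the clones, MIR600HG (log2 fold change -0.10) and MIR34AHG (0.04). MIR17HG, the precursor of the miR-17 to miR-92a sequences printed above, is named after its values were seen. It had 384 and 322 normalized counts in mock control against 350, 306 and 572 in the clones. Only clone 3 stood apart, and the log2 fold change was 0.16 (95% interval -0.35 to 0.68, adjusted p = 0.775, limma).

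Of 422 listed miRNA genes 41 were tested. By limma, edgeR and DESeq2 0 of them were called, beside 1.88%, 1.81% and 3.27% of all tested genes. By these tools 2, 1 and 0 had an unadjusted p below 0.05, beside 2911 (15.1%), 2874 and 2295 of 19232 tested genes. A read assigned to such a row comes from poly(A)+ RNA that covers the hairpin and not from the mature miRNA. The 5 rows of the miR-302 cluster were chosen after their values were seen. MIR367 was the highest, with 127 and 107 normalized counts in mock control against 173, 131 and 75.03 in the clones. MIR302A had 47.3 and 62.7 against 98.2, 49.5 and 58.7, and MIR302C had 69.2 and 44.4 against 80.2, 65.7 and 39.4. Clone 1 was the highest sample for each of these 3 rows, and the groups overlapped. MIR302B had 50.7 and 40.5 against 56.1, 54.9 and 23.1, and MIR302D had 13.8 and 24.1 against 20.045, 21.6 and 14.4.

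Summed over the 5 rows, the miR-302 cluster had 308 and 279 normalized counts in mock control against 428, 322 and 211 in the clones. The clones lay on both sides of the controls, and the adjusted p of the single rows was between 0.718 and 0.992 (limma). The cluster sits inside the span of LARP7 on the opposite strand, which had 6332 and 6125 normalized counts in mock control against 6975, 5142 and 5421 in the clones. On the cluster's own strand, the gene AC106864.1 spans all 5 rows. It had 3.46 and 4.83 normalized counts in mock control against 10.02, 8.10 and 7.69 in the clones. All clones of AC106864.1 lay above both controls, but its counts were too low for the filter and it was not tested. Without the strand, LARP7 reads cannot be told apart from reads of the cluster. In bulk RNA, fewer cells that express a gene and less of its RNA per cell cannot be told apart either.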

How the data were processed

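The authors deposited 1 table of normalized counts, a signal per gene obtained from reads by division through each sample's size factor. The submitters' processing notes name HISAT2, featureCounts (Subread), DESeq2 and hg38. Versions, annotation release and strand setting are not given in the sources used here. The table's columns headed H9 were taken as the mock controls. The deposited gene lengths were used, while the group means, log2 fold changes and p-values of the authors' own comparison, which they also deposited, were not.

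Values were whole multiples of 1 read within 0.01 in 100% of cases, which gave the reads of each sample. Genes reaching 10 normalized counts in 2 or more samples were tested with limma 3.58.1 (mean-variance trend, R 4.3.3) on log2(value + 1), with Benjamini-Hochberg adjustment and a threshold of 0.05. This scale understates fold changes of low genes. Alternatives were edgeR 4.0.16 (quasi-likelihood) and DESeq2 1.42.0 (Wald), both on the recovered reads, other filters, pseudocounts and scaling, a block for the replicate number, and leaving out single samples.

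The members and lists were chosen with earlier results of these data known. Named were the 10 members, NUDT21, called and most abundant genes of each pathway list, called and the 3 most abundant host genes, and genes overlapping a member with a mean of at least 10. Other genes are named after their values were seen.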

Additional observations from a re-analysis of the deposited data

How the results depend on the processing

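Of the 10 biogenesis genes, 0 were called by limma or the other tests under each of the 14 alternatives, and in 12 of them none had an unadjusted p below 0.05. In limma without CFIm25-m clone 2, AGO3 (log2 fold change 0.25, adjusted p = 0.267) and DGCR8 (0.30, adjusted p = 0.265) were below it before adjustment, as was DROSHA (-0.14, adjusted p = 0.241) without clone 3. Among all tested genes, 3491 of 19000 were below it without clone 2 and 3844 of 18809 without clone 3. The estimates of DROSHA, DICER1, DGCR8, PRKRA and the 4 Argonautes kept their sign throughout, AGO2 between -0.22 and -0.07, DGCR8 between 0.003 and 0.30, AGO1 between 0.048 and 0.17, AGO3 between 0.15 and 0.27, AGO4 between 0.078 and 0.17 (0.078 without clone 1, 0.080 without mock control 2), PRKRA between -0.15 and -0.054, and DROSHA between -0.16 and -0.12. For DROSHA, DICER1, AGO2 and AGO3 the groups did not overlap, so leaving out a sample could not turn the sign. TARBP2 turned to 0.022 with the replicate block. Its range was -0.11 to 0.022 when single samples were left out (0.022 without clone 3). XPO5 ranged from -0.028 (without mock control 2) to 0.034, and was also below 0 without clone 1 or 2. All tested genes gave 361 calls, against 46 without the trend, 629 with DESeq2, 2107 with the replicate block and 66 to 1044 with single samples left out (66 and 71 without mock controls 1 and 2, and 143, 201 and 1044 without clones 1, 2 and 3). The wider pathway lists gave 0 calls with at least 10 counts in all samples, 0 without the trend, 8 with the block and 0 to 6 with single samples left out. Host genes gave 1 call with the block and 0 otherwise. NUDT21 stayed at -0.86 without the trend but missed the threshold (adjusted p = 0.106), and was at -0.95 to -0.80 with single samples left out, missing it without mock control 1 (-0.85, adjusted p = 0.0618) or mock control 2 (-0.87, adjusted p = 0.0557, limma). The block gives replicate 3, which has no control of its number, a term of its own, so its estimates equal those without clone 3. Deviations of same-numbered samples had correlations of 0.007 and 0.018, so these values show no pairing by number. The deviations of the 2 mock controls mirror each other, so these are not separate checks and cannot exclude a pairing.

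With the block, RAN turned to 0.014, MIR34AHG to -0.13, TRMT2A to -0.055, AC009948.1 to -0.058 and MIR302B to 0.29. MIR302D turned to -0.018 with edgeR and -0.022 with DESeq2. With single samples left out, the log2 fold change changed sign within the ranges of RAN (-0.19 to 0.014), MIR34AHG (-0.13 to 0.19), TRMT2A (-0.080 to 0.098), AL355802.1 (-0.78 to 0.087), POLR1C (-0.15 to 0.0064) and AC009948.1 (-0.058 to 0.20), and of MIR302A (-0.014 to 0.47), MIR302B (-0.34 to 0.29), MIR302C (-0.22 to 0.41), MIR302D (-0.37 to 0.39) and MIR367 (-0.23 to 0.37). The cause of these changes was not tested. TMM scaling moved the median of all tested genes from -0.01 to 0.01. With 2 controls against 3 clones of 1 line, changes of the size estimated for these genes did not pass the threshold, and gene counts give neither protein, mature miRNA nor choice of polyadenylation site.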
